A study of Mus musculus with 8 samples.

Results

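The complement components and receptors described here are 8 genes, C1qa, C1qb, C1qc, C3, C3ar1, C5ar1, Cfb and Cfp, found by symbol among the 53735 genes of the count tables. They were measured by bulk RNA-seq in bone marrow derived macrophages (BMDMs), which are bone marrow cells grown in differentiation medium for 7 days. The marrow came from male mice aged 6 months that had received Ang II by minipump for 7 days. WT mice were Mkl1+/+, Apoe-/- and KO mice were Mkl1-/-, Apoe-/-, so both genotypes lacked Apoe, both had received Ang II, and no untreated group was analysed here. Mkl1 encodes a cofactor of the transcription factor SRF, and the KO mice lacked it in the whole animal rather than in macrophages alone. Each of 2 experiments held 2 WT and 2 KO libraries: WT libraries 1 and 2 with KO libraries 5 and 6 in experiment 1, and WT libraries 3 and 4 with KO libraries 7 and 8 in experiment 2. The labels do not tie a library to a named mouse, and p-values measure the spread between these libraries.

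Complement is a cascade of plasma proteins that tags particles for uptake and recruits leukocytes. C1q, built from chains encoded by C1qa, C1qb and C1qc, binds immune complexes and dying cells and starts the classical pathway, and resident macrophages are a main source of it. C3 is the central component, and its cleavage yields C3b, which coats targets, and the peptide C3a. Cfb encodes factor B, a subunit of the alternative pathway C3 convertase, and Cfp encodes properdin, which stabilises that convertase. C3ar1 and C5ar1 encode the receptors of the peptides C3a and C5a on myeloid cells.

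Sequencing gave between 33977799 and 41584540 counts per library. Levels are given in CPM, counts relative to the size of the library, which was scaled by TMM, a method that balances libraries on the bulk of their genes, and fold changes are KO relative to WT on the log2 scale, with a positive value for a higher level in KO. A gene was called when its Benjamini-Hochberg adjusted p from edgeR's quasi-likelihood test, over all 14418 genes with enough counts, was under 0.05. The targeted gene Mkl1 averaged 26.4 CPM in WT and 20.2 CPM in KO in experiment 1, and 28.2 CPM in WT and 12.5 CPM in KO in experiment 2. All 4 KO libraries lay below all 4 WT libraries (two-sided exact permutation test, p = 0.0286, or 0.0556 within experiments, the smallest values that either permits), an order held by 6.25% of all tested genes, but reads of the gene remained in KO. The log2 fold change of Mkl1 over both experiments was -0.78 and was not called (edgeR adjusted p = 0.0574), while DESeq2 (adjusted p = 0.00296) and edgeR with no filter (0.0379) called it. It was -0.39 (0.00381) in experiment 1 and -1.17 (0.0218) in experiment 2, a difference of -0.79 (edgeR adjusted p = 0.0238). The call of the difference was lost in 5 of the 8 fits without 1 library, those without WT library 1, 2 or 4 or KO library 5 or 6 (edgeR adjusted p between 0.0587 and 0.0879). The call in experiment 2 was lost without WT library 3 (0.0567), WT library 4 (0.0540) or KO library 8 (0.0736), and that in experiment 1 in the fit of all 4 groups (0.0812). Macrophage markers summed to between 15256 and 36056 CPM in every library, with Lyz2 the most abundant. Of these 10 markers, 3 were called lower and 6 higher in KO in experiment 1 and 2 lower and 3 higher in experiment 2, where 28.1% and 27.0%, then 8.29% and 7.52%, of all genes were called. Adgre1, which encodes F4/80, had log2 fold changes of -2.11 (edgeR adjusted p = 6.39e-06) and 0.91 (0.0258) in experiments 1 and 2, and Csf1r, which encodes the M-CSF receptor, 0.82 (0.000966) and -1.28 (0.0309). Neutrophil markers summed to at most 13.7 CPM and dendritic cell markers to at most 1.73 CPM. KO libraries 5 and 6 of experiment 1 had the most fibroblast marker RNA, with sums of 207 to 272 CPM against 2.40 to 13.6 CPM elsewhere, where Lum and, in KO of experiment 2, also Thy1 were at 0. They also had the most monocyte marker RNA, 111 to 139 CPM, against 6.01 to 40.7 CPM in WT libraries 3 and 4 and 1.57 to 4.27 CPM in the remaining 4 libraries. Across all tested genes, the groups nearest to each other were WT in experiment 1 and KO in experiment 2. Their mean log2 levels differed with an SD of 0.41 over genes. The other 5 pairs of groups had SDs between 0.84 and 0.98, with WT in experiment 2 and KO in experiment 1 the farthest apart. Whether any library was exchanged between groups was not tested. Mkl1 was lower in KO in both experiments, and directions below are those of the labels.

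Promoter sequences of 6 members matched a RefSeq table on GRCm38.p6, and those of C1qb, C3 and C3ar1 are shown because these genes stand for the 3 patterns of response described below. Each sequence is the 250 bases before the transcription start, 5′ to 3′. Capitals mark matches, on either strand, to letters recognised by factors active in macrophages: GAGGAA for PU.1 and other ETS factors, TGCTGA for MAF factors, TTGCNNAA for C/EBP, TGANTCA for AP-1, and a loose NF-kB motif of GGG and CC separated by 5 bases of any kind.
C1qb promoter, chr4:136886201-136886450, minus strand: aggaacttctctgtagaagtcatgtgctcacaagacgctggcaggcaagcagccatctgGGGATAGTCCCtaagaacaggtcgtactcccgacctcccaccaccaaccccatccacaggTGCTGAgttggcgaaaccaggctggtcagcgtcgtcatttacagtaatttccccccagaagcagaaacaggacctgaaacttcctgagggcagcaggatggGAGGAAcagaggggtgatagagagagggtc
C3 promoter, chr17:57228137-57228386, minus strand: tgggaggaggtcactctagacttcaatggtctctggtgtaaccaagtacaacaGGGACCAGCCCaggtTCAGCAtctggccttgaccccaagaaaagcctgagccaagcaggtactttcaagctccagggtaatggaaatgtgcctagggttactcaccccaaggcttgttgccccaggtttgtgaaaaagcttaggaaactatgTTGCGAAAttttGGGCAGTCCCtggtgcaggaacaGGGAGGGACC
C3ar1 promoter, chr6:122856158-122856407, minus strand: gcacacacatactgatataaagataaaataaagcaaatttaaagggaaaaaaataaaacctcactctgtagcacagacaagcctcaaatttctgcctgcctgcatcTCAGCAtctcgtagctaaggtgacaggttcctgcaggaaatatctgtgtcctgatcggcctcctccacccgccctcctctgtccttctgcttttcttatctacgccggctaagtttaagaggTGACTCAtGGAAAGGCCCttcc
In the C1qb promoter the capitals are, from the 5′ end, overlapping NF-kB matches, a MAF match and a PU.1 match that lies 30 to 25 bases before the start. In the C3 promoter they are overlapping NF-kB matches, a MAF match, a C/EBP match 45 to 38 bases before the start and further NF-kB matches at 33 to 24 and 10 to 1 bases. In the C3ar1 promoter they are a MAF match, an AP-1 match 22 to 16 bases before the start and an NF-kB match. Among 32851 promoters of the same length, 23.3% held the PU.1 letters, 16.1% the MAF letters, 9.56% the C/EBP letters, 45.8% the NF-kB letters and 6.75% the AP-1 letters. The members held them in 2, 4, 1, 5 and 1 of 6 promoters, in that order. No member promoter held the GAS letters TTCNNNGAA of STAT factors (7.02% of all promoters), the ISRE of IRF factors (2.98%) or the CArG box of SRF (1.47%). These matches describe the letters of the window, not binding.

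Of the 8 members, 7 passed the filter on low counts and Cfb did not. In experiment 1, 3 members were called lower in KO (C3, C3ar1 and C5ar1), where 28.1% of all tested genes were called lower, and 3 were called higher (C1qa, C1qb and C1qc), where 27.0% were called higher. In experiment 2, C3 was the 1 member called lower, against 8.29% of all genes, and none was called higher, against 7.52%. At an unadjusted p under 0.05, edgeR had 4 members lower and 0 higher in experiment 2. No all-gene count at that unadjusted p is given here. DESeq2 called 4 members lower and 0 higher, where it called 1657 of all genes lower and 1516 higher. Over both experiments, with the experiment as an additive term, edgeR called C3 alone lower, against 3.41% of all genes, and no member higher, against 3.72%. The counts at an unadjusted p under 0.05 and from DESeq2 were also 1 lower and 0 higher. Of all genes, DESeq2 called 1256 lower and 1236 higher over both experiments. The KO effect differed between the experiments for 4 members (C1qa, C1qb, C1qc and C3ar1), where 41.6% of all genes differed. The median log2 fold change of the 7 tested members was -0.13 in experiment 1, -0.58 in experiment 2 and -0.04 over both, beside a median of all genes of 0.01 in each experiment and 0.00 over both.

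**Figure D1:**
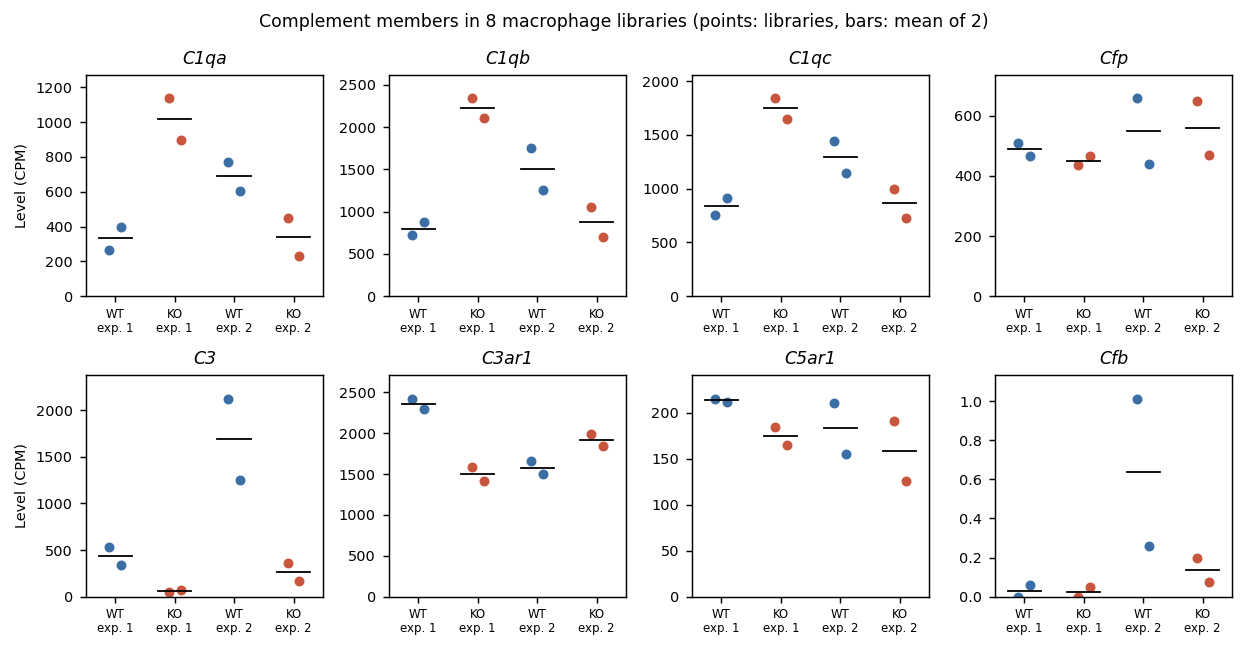
Level of each complement member in the 8 libraries, in TMM-scaled CPM on linear axes that start at 0, with points for libraries grouped by experiment and genotype and bars for the mean of each pair of libraries. The C1q genes are higher in KO in experiment 1 and lower in KO in experiment 2, while C3 is lower in KO in both.

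The genes of the C1q chains lie side by side on the minus strand at chr4:136880129-136898803 (GRCm38, GENCODE M21), an interval of 18.7 kb. C1qa was measured at 268 and 395 CPM in WT and at 1137 and 897 CPM in KO in experiment 1, and at 772 and 607 CPM in WT and 448 and 234 CPM in KO in experiment 2. KO libraries were therefore above WT in experiment 1 and below WT in experiment 2, without overlap in either. The log2 fold change of C1qa was 1.60 (SE 0.26, edgeR adjusted p = 0.0126) in experiment 1 and -1.02 (SE 0.34, edgeR adjusted p = 0.110) in experiment 2. The call in experiment 1 was lost without KO library 5 (edgeR adjusted p = 0.104), without KO library 6 (0.0688) and with no filter on low counts (0.109). Within an experiment such a fit leaves a genotype with 1 library, which is assumed to vary like the other group.

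C1qb was measured at 722 and 876 CPM in WT and at 2340 and 2104 CPM in KO in experiment 1. In experiment 2 its levels were 1748 and 1256 CPM in WT and 1049 and 696 CPM in KO. The order of the groups was that of C1qa, again without overlap within an experiment. For C1qb the log2 fold change was 1.46 (SE 0.11, edgeR adjusted p = 3.7e-05) in experiment 1 and -0.78 (SE 0.27, edgeR adjusted p = 0.114) in experiment 2. C1qc was measured at 758 and 912 CPM in WT and 1841 and 1651 CPM in KO in experiment 1, and at 1443 and 1144 CPM in WT and 998 and 730 CPM in KO in experiment 2. For C1qc the log2 fold change was 1.05 (SE 0.10, edgeR adjusted p = 0.000142) in experiment 1 and -0.58 (SE 0.22, edgeR adjusted p = 0.134) in experiment 2. C1qc thus had the smallest fold change of the C1q genes in each experiment and C1qa the largest in size. Both KO libraries lay above both WT libraries in experiment 1 for 41.2% of all genes, and below them in experiment 2 for 32.5% of all genes.

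The differences of the C1q genes in experiment 2 were called under some other models. DESeq2 gave adjusted p = 0.00962 for C1qa, 0.0203 for C1qb and 0.0472 for C1qc. An edgeR fit of all 4 groups with a shared spread gave adjusted p = 0.0449, 0.0357 and 0.0476. Leaving out 1 library moved the log2 fold change of C1qa in experiment 2 between -0.62 without KO library 8 (edgeR adjusted p = 0.203) and -1.56 without KO library 7 (0.0497), with -0.83 without WT library 3 (0.355) and -1.18 without WT library 4 (0.192). The change of the KO effect from experiment 1 to experiment 2 was -2.63 (SE 0.46, edgeR adjusted p = 0.00392) for C1qa, -2.26 (SE 0.33, 0.00197) for C1qb and -1.65 (SE 0.27, 0.00292) for C1qc, and it was called in every alternative run. Over both experiments the log2 fold change of C1qa was 0.30 (SE 0.60, edgeR adjusted p = 0.811), an average of opposite values. The high C1q levels of the KO libraries of experiment 1 stood in the libraries with the most fibroblast and monocyte marker RNA, whose part in the result was not tested. The fold changes of the macrophage marker Csf1r had the signs of the C1q genes, and those of Adgre1 the signs of C3ar1. In bulk RNA, fewer cells of a type and less RNA per cell cannot be told apart.

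**Figure D2:**
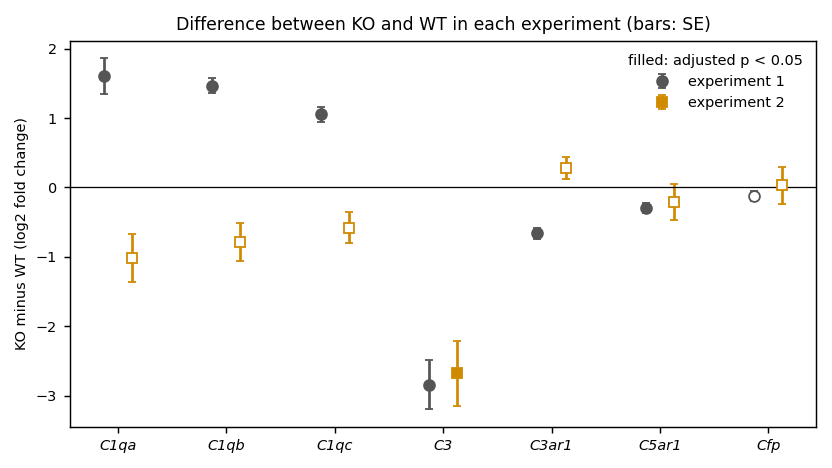
KO relative to WT for the 7 members with enough counts, as log2 fold change on the vertical axis, with circles for experiment 1, squares for experiment 2, bars for the standard error and filled markers where the edgeR adjusted p was under 0.05. C3 lies near -2.8 in both experiments, and the C1q genes change sign between them.

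The WT groups of the experiments differed from each other for these genes as well. WT C1qa averaged 332 ± 89.7 CPM (SD, n = 2) in experiment 1 and 689 ± 117 CPM (SD, n = 2) in experiment 2, a ratio of 2.08 that was not tested. KO C1qa averaged 1017 ± 170 CPM (SD, n = 2) in experiment 1 and 341 ± 152 CPM (SD, n = 2) in experiment 2. WT of experiment 1 and KO of experiment 2 had nearly equal mean log2 levels of the C1q genes, apart by 0.01 for C1qa, -0.10 for C1qb and -0.04 for C1qc. These are the groups that lay closest over all genes.

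The C1q genes together held between 0.168% and 0.552% of the counts of a library. Divided by exon length, C1qb took 48.6% to 53.0% of their summed level, C1qc 22.7% to 30.4% and C1qa 18.1% to 26.0%. The ratio of C1qa to C1qc per kilobase was 0.657 and 0.804 in WT and 1.15 and 1.01 in KO of experiment 1. It was 0.993 and 0.985 in WT and 0.834 and 0.594 in KO of experiment 2. Ordered by their summed C1q level, the 8 libraries were also in the order of this ratio, although C1qa is part of both measures. Across the 8 libraries, which share experiment and genotype, Pearson's r of log2 CPM was 0.987 for C1qa with C1qb, 0.991 for C1qa with C1qc and 0.999 for C1qb with C1qc.

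**Figure D3:**
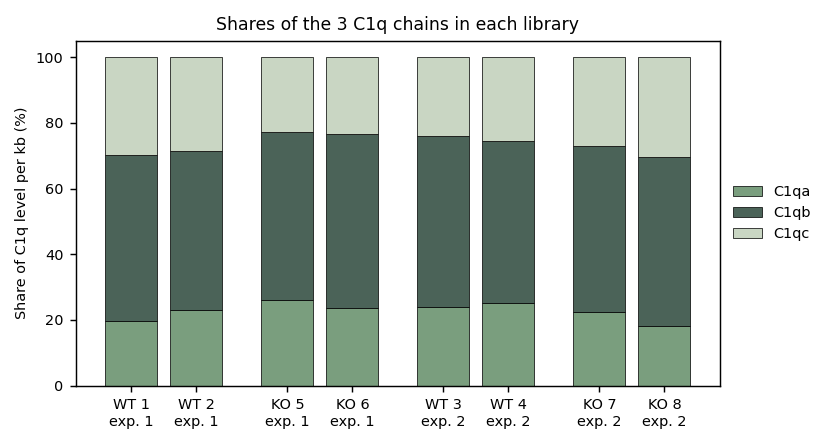
Share of each C1q gene in their summed level per kilobase of exon, in percent, as stacked bars for the 8 libraries. C1qb takes 48.6% to 53.0% in every library, and the share of C1qa ranges from 18.1% to 26.0%.

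C3 was lower in KO in both experiments. It was measured at 537 and 342 CPM in WT and 51.7 and 71.9 CPM in KO in experiment 1, and at 2127 and 1251 CPM in WT and 358 and 169 CPM in KO in experiment 2. Within each experiment both KO libraries lay below both WT libraries, an order held by 38.7% of all genes in experiment 1 and 32.5% in experiment 2. Across experiments the groups overlapped, because KO library 7 of experiment 2 was above WT library 2 of experiment 1. WT C3 was 3.84 times as high in experiment 2 as in experiment 1, from the group means, and this ratio was not tested.

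The log2 fold change of C3 was -2.84 (SE 0.36, edgeR adjusted p = 0.0108) in experiment 1 and -2.68 (SE 0.47, edgeR adjusted p = 0.0280) in experiment 2. Over both experiments it was -2.75 (SE 0.32, edgeR adjusted p = 0.00700), a 6.75-fold lower level, with all 4 KO libraries below the WT libraries of their own experiment. The KO effects of the experiments differed by 0.15 (SE 0.58, edgeR adjusted p = 0.854). Called lower in both experiments were 2.25% of all tested genes. The exact permutation test of the C3 level over all 70 arrangements gave p = 0.0571, and that within experiments gave p = 0.0556, the smallest its 36 arrangements allow.

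The call of C3 over both experiments held with each library left out in turn (edgeR adjusted p between 0.0132 and 0.0346) and was lost without the experiment term (0.162). In experiment 1 the call was lost without KO library 5 (edgeR adjusted p = 0.123), without KO library 6 (0.0977) and with no filter (0.0593). In experiment 2 it was lost without WT library 3 (0.0994), without KO library 8 (0.0893) and with no filter (0.167, all edgeR adjusted p). The fold change was negative in each of these fits, and in experiment 2 it ran from -2.24 without KO library 8 to -3.32 without KO library 7.

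C3ar1 had the highest mean CPM of the members, not corrected for length. It was measured at 2424 and 2301 CPM in WT and 1592 and 1416 CPM in KO in experiment 1, and at 1660 and 1499 CPM in WT and 1989 and 1839 CPM in KO in experiment 2. The groups did not overlap within either experiment, with KO below WT in experiment 1 and above WT in experiment 2, where 32.9% of all genes had KO above WT. Its log2 fold change was -0.66 (SE 0.08, edgeR adjusted p = 0.000268) in experiment 1 and 0.28 (SE 0.16, edgeR adjusted p = 0.272) in experiment 2. The change between the experiments was 0.93 (SE 0.16, edgeR adjusted p = 0.00380), opposite in sign to that of the C1q genes. Across the 8 libraries Pearson's r of C3ar1 with the C1q genes was between -0.744 and -0.780.

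The ratio of C3 to its peptide's receptor, as C3 over C3ar1 in CPM, was 0.221 and 0.149 in WT and 0.0325 and 0.0508 in KO in experiment 1. In experiment 2 it was 1.28 and 0.834 in WT and 0.180 and 0.0919 in KO. The ratio was lower in both KO libraries than in both WT libraries of each experiment. C3 levels spanned 41.1-fold over the libraries and C3ar1 levels 1.71-fold.

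C5ar1, the C5a receptor, was measured at 215 and 212 CPM in WT and 185 and 165 CPM in KO in experiment 1, and at 210 and 155 CPM in WT and 191 and 125 CPM in KO in experiment 2. KO lay below WT in experiment 1, and the groups overlapped in experiment 2. The log2 fold change was -0.30 (SE 0.07, edgeR adjusted p = 0.00645) in experiment 1 and -0.21 (SE 0.26, edgeR adjusted p = 0.611) in experiment 2. The call in experiment 1 was lost in the fit of all 4 groups (edgeR adjusted p = 0.305). The difference between the experiments was 0.08 (SE 0.30, edgeR adjusted p = 0.850).

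Cfp was measured at 511 and 466 CPM in WT and 435 and 465 CPM in KO in experiment 1, and at 658 and 438 CPM in WT and 650 and 469 CPM in KO in experiment 2. In experiment 1 WT library 2 and KO library 6 were nearly level, and in experiment 2 the groups overlapped. Its log2 fold change was -0.13 (SE 0.07, edgeR adjusted p = 0.163) in experiment 1 and 0.03 (SE 0.26, edgeR adjusted p = 0.950) in experiment 2. In experiment 1 it was called with no filter on low counts (edgeR adjusted p = 0.0363).

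Cfb was near the detection limit. Its counts were 0 and 2 in WT and 0 and 2 in KO in experiment 1, and 37 and 9 in WT and 8 and 3 in KO in experiment 2. All values of experiment 1 were at or under the floor of 3 counts, so no fold is given there. With no filter on low counts its log2 fold change in experiment 2 was -2.23 (edgeR adjusted p = 0.0890). In GENCODE M21, 79.5% of the exon bases of Cfb (2246 of 2825) are shared on the same strand with the read-through gene Gm20547. The release used for counting is not given in the sources used here and may differ there, and the tables hold 0 rows under the symbol Gm20547. Whether the overlap touched the counts of Cfb was not tested.

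Per kilobase of exon, the mean level over the 8 libraries ran from C1qb (1240 CPM per kb) through C1qc (613), C1qa (572), C3ar1 (427), Cfp (295), C3 (119) and C5ar1 (70.9) to Cfb (0.0730). C1qb was above C1qc in 8 of 8 libraries, C3ar1 above Cfp in 8 of 8 and C5ar1 above Cfb in 8 of 8. Other neighbours in this order changed places between libraries. C1qc was above C1qa in 6 of 8, C1qa above C3ar1 in 4 of 8, Cfp above C3 in 7 of 8 and C3 above C5ar1 in 3 of 8.

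Genes with the most similar pattern to each member were sought by Pearson's r of log2 CPM over the 8 libraries, as a description. For each C1q gene the closest genes were the other C1q genes and Supt4a, which encodes a transcription elongation factor and had r between 0.981 and 0.996. The closest genes to C3 were Slc25a25 (r = 0.993), which encodes a mitochondrial carrier, Cep135 (0.991), which encodes a centrosome protein, and RP23-173N16.6 (0.989). The closest to C3ar1 were Otud1 (0.997), Foxp1 (0.975) and Osm (0.968), which encode a deubiquitinase, a transcription factor and the cytokine oncostatin M. The receptor C5ar1 had Ppp1r18 (0.894), Isy1 (0.873) and Btg2 (0.866) as its closest genes, and Cfp had Snx2 (0.903), Pxk (0.897) and Pag1 (0.891). These values rest on 8 libraries that share experiment and genotype within 4 groups.

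A list of 56 other complement genes set the members beside the rest of the pathway. Of these, 27 were tested and 21 had at most 3 counts in every library, among them the terminal components C6, C7, C8a and C8b and the lectins Mbl1 and Mbl2. In experiment 1, 6 were called lower and 14 higher in KO, where 28.1% and 27.0% of all genes were called, and the median fold change of the tested genes was 0.73 (log2), against 0.01 for all genes. The KO libraries of experiment 1 also held the most fibroblast marker RNA, whose part in this median was not tested. In experiment 2, edgeR called 2 lower and 2 higher, beside 8.29% and 7.52% of all genes, with a median of 0.30. Over both experiments edgeR called 0 lower and 0 higher, beside 3.41% and 3.72% of all genes. At an unadjusted p under 0.05 edgeR had 1 lower and 7 higher, with no all-gene count given here. DESeq2 called 1 lower and 4 higher, where it called 1256 of all genes lower and 1236 higher. The KO effect differed between the experiments for 16 of the 27, where 41.6% of all genes differed. None of the 27 was called in the same direction in both experiments, beside 2.25% of all genes called lower in both.

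By role, the initiators of the classical and lectin pathways counted 1 lower and 4 higher of 8 tested in experiment 1, beside 28.1% and 27.0% of all genes, and none called of 8 in experiment 2, beside 8.29% and 7.52%. Masp1, a protease of the lectin pathway, had 16 and 13 counts in WT and 208 and 203 counts in KO in experiment 1. Its counts were 8 and 15 in WT and 30 and 3 in KO in experiment 2. The log2 fold change of Masp1 was 3.76 (edgeR adjusted p = 8.01e-06) in experiment 1 and 0.30 in experiment 2 (edgeR adjusted p = 0.860). Masp1 and the regulator Serping1 rose in the KO libraries that held the fibroblast marker RNA, whose defining gene Col1a2 was at 81.8 and 105 CPM there and between 0.983 and 5.37 CPM in the other 6 libraries, and its part in these values was not tested.

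Serping1 encodes the C1 inhibitor, which blocks the proteases bound to C1q. It had 16 and 22 counts in WT and 444 and 1016 counts in KO in experiment 1, and 19 and 34 counts in WT and 26 and 2 counts in KO in experiment 2. For Serping1 the log2 fold change was 5.18 (edgeR adjusted p = 0.00675) in experiment 1 and -1.13 (edgeR adjusted p = 0.466) in experiment 2. In experiment 2 the value ran from -0.24 without KO library 8 to -3.87 without KO library 7, with -0.61 without WT library 4. In experiment 1 it was 4.53 without KO library 6. The call in experiment 1 was lost without WT library 1 (0.108), without WT library 2 (0.112) and with no filter (0.0636, all edgeR adjusted p).

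Cd55, which encodes a membrane protein that speeds the decay of C3 convertases, had the widest change of the list. It was measured at 148 and 221 CPM in WT and 1.60 and 1.22 CPM in KO in experiment 1, and at 6.80 and 1.98 CPM in WT and 154 and 170 CPM in KO in experiment 2. Its high groups were those that lay closest over all genes, WT of experiment 1 and KO of experiment 2. The log2 fold change was -7.04 (edgeR adjusted p = 0.000679) in experiment 1 and 5.20 (edgeR adjusted p = 0.0140) in experiment 2. The value in experiment 2 was 6.34 without WT library 3 and 4.57 without WT library 4. Without KO library 5 or KO library 6 the call in experiment 1 missed the threshold (edgeR adjusted p = 0.0550 and 0.05004), as did that in experiment 2 without KO library 8 (0.0707) or with no filter (0.121).

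Of 10 further genes tested from the list of receptors and binding proteins, 4 were called lower and 6 higher in experiment 1 (28.1% and 27.0% of all genes). In experiment 2, 2 were called lower and 1 higher (8.29% and 7.52% of all genes). Itgam and Itgax encode the alpha chains of complement receptors 3 and 4, which bind C3 fragments on coated targets. Itgam was measured at 358 and 343 CPM in WT and 172 and 174 CPM in KO in experiment 1, and at 157 and 114 CPM in WT and 418 and 268 CPM in KO in experiment 2. Its log2 fold change was -1.03 (edgeR adjusted p = 6.39e-06) in experiment 1 and 1.34 (edgeR adjusted p = 0.0371) in experiment 2, and the latter call was lost with any of the 4 libraries left out (edgeR adjusted p between 0.0663 and 0.108). Itgax was measured at 3.25 and 2.29 CPM in WT and 19.2 and 29.3 CPM in KO in experiment 1, and at 30.9 and 46.7 CPM in WT and 1.59 and 0.935 CPM in KO in experiment 2. KO differed from WT in Itgax by 3.11 on the log2 scale (edgeR adjusted p = 0.000712) in experiment 1 and -4.94 (edgeR adjusted p = 0.00565) in experiment 2. The fold changes of Itgax had the signs of those of the C1q genes in both experiments, and those of Itgam and Cd55 the signs of C3ar1.

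**Figure D4:**
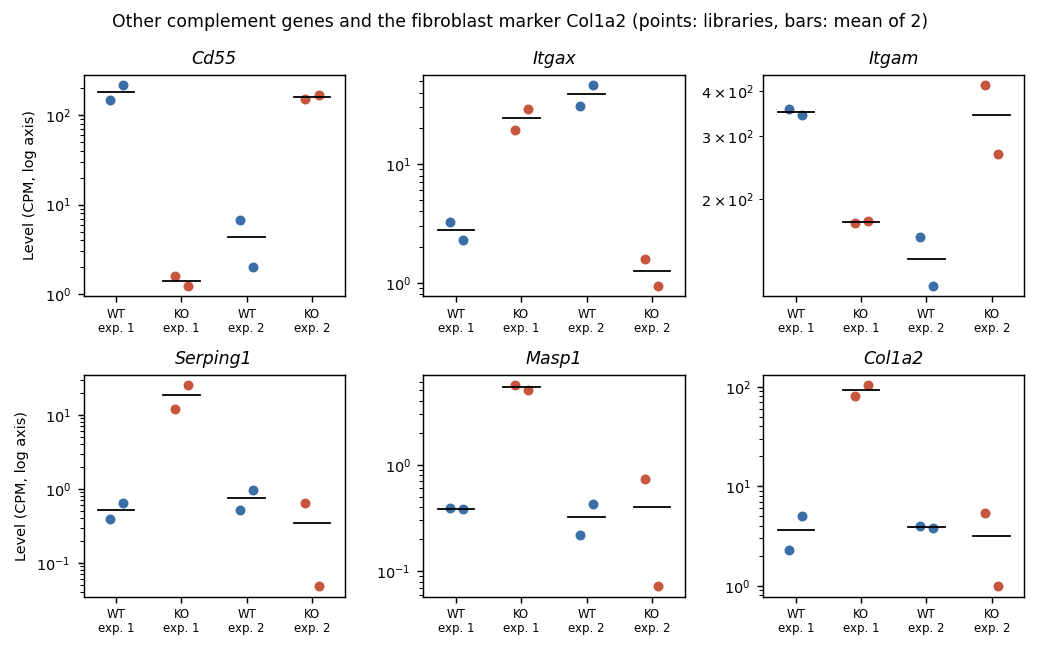
Levels of Cd55, Itgax, Itgam, Serping1, Masp1 and the fibroblast marker Col1a2 in the 8 libraries, in TMM-scaled CPM on log axes, with points for libraries grouped by experiment and genotype and bars for the mean of each pair. Cd55, Itgax and Itgam change in opposite directions in the 2 experiments, and Serping1, Masp1 and Col1a2 are high in the KO libraries of experiment 1.

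Calr, which encodes calreticulin, a protein that can bind C1q, was named after its values were seen because it was the remaining list gene called in opposite directions. For Calr the log2 fold change was 0.44 (edgeR adjusted p = 0.00267) in experiment 1 and -0.73 (edgeR adjusted p = 0.0473) in experiment 2. In all, 4 of the 27 tested genes of the list were called in opposite directions, where 6.34% of all genes were. C3 was the 1 gene of the 34 tested complement genes, members and list together, that was called in the same direction in both experiments. Among all tested genes, 2.25% were called lower in both.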

How the data were processed

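RNA-seq libraries of BMDMs, 4 WT and 4 KO libraries, were compared within and across 2 experiments of 2 libraries per genotype each, grouped by the genotype and experiment in the sample labels. The authors deposited raw counts per gene, and normalized counts, a signal in which each library's counts had been divided by 1 factor, 0.891 to 1.09, computed separately for each experiment. The submitters' processing notes name STAR 2.7.0f, Subread 1.6.4 with featureCounts, DESeq2 1.22.1 and the build GRCm38, and the annotation release is not given in the sources used here. The library kit was a stranded mRNA kit. Within pairs of libraries of the same genotype and experiment, counts differed by more than counting noise (chi-square per gene between 11.0 and 73.1).

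Raw counts entered edgeR 4.0.16 (R 4.3.3; genes filtered with filterByExpr on genotype, TMM, quasi-likelihood F test with the robust option, Benjamini-Hochberg adjustment over 14418 genes), in 4 comparisons: each experiment alone, both with an additive experiment term, and the interaction of genotype and experiment. The SE was derived from the fold change and its F statistic. Log2 CPM used a prior count of 2. A count of 3 or fewer was treated as at the floor, and ratios of mean levels were left out for genes with any library there. Log2 fold changes came from the fitted models and were not subject to this rule. Exact permutation tests were two-sided. The code was tested on simulated data. Alternatives were DESeq2 1.42.0, no filter beyond 1 count in total, upper quartile scaling, a fit of all 4 groups, no experiment term, and each library left out.

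The text names all members, Mkl1, list genes called in the same direction in both experiments or over both, the 3 list genes with the largest called change in each experiment (mean log2 CPM of 0 or more), and the 3 genes most like each member (mean log2 CPM of 3 or more). Members and lists were chosen with earlier results of these data known. Gene positions and exon lengths came from GENCODE M21 on GRCm38, and promoters from RefSeq on GRCm38.p6, in which C1qa and Cfb have no entry in the table used here. The result of 1 gene of the lists is not reported here. Figures were drawn with matplotlib 3.10.9.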

Additional observations from a re-analysis of the deposited data

Results flagged for a closer look

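For 9 genes the KO effect differed between the experiments by the interaction test of edgeR, given here as the log2 fold change in experiment 2 minus that in experiment 1. Among the members it was -2.63 for C1qa, -2.26 for C1qb, -1.65 for C1qc and 0.93 for C3ar1. Among the other complement genes it was 12.23 for Cd55, -6.31 for Serping1, -3.47 for Masp1, -8.07 for Itgax and 2.36 for Itgam. The call for Masp1 was lost in 6 of the 8 fits that left out 1 library, those without WT library 1, 2, 3 or 4 or KO library 5 or 6 (edgeR adjusted p between 0.0595 and 0.170), and its value was -5.86 without KO library 7 and -2.61 without KO library 8. Without 1 library the difference ran from -9.02 (without KO library 7) to -5.42 (without KO library 8) for Serping1, with -5.67 without KO library 6, and from 11.60 (without WT library 4) to 13.41 (without WT library 3) for Cd55. The interaction was called for 41.6% of all tested genes.

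A library stood apart from the other 3 of its genotype by Dixon's criterion in 2 of 26 sets of 4 libraries examined, where chance alone marks about 1 in 20. C5ar1 was at 155 CPM in WT library 4, below the other WT libraries, and Cfp was at 650 CPM in KO library 7, above the other KO libraries.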

How the results depend on the processing

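No paired analysis was possible because the labels number the libraries 1 to 8 and no number is shared between groups. With 2 libraries per genotype in an experiment, calls depended on the model. In experiment 2 the fit of all 4 groups called 2418 genes lower and 2481 higher and 4 members lower. DESeq2 called 1657 genes lower and 1516 higher there, with 4 members lower and 4 other complement genes higher. With no filter 1566 genes were lower and 1533 higher, and 0 members were lower. Over both experiments DESeq2 called 1256 genes lower and 1236 higher, with 1 other complement gene lower and 4 higher, while without the experiment term 1 gene was lower, 3 were higher and 0 members were lower. Upper quartile scaling moved the median of all genes by 0.10 in experiment 1 and turned Cfp over both experiments to 0.029 (edgeR adjusted p = 0.935). The causes were not tested.

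Leaving out each library in turn gave ranges. In experiment 2 they were 110 to 834 genes lower, 122 to 554 higher, 0 to 2 members lower, 1 to 1 other complement genes lower and 0 to 2 higher, and log2 fold changes from -0.54 to 0.064 for C5ar1, -0.23 to 0.35 for Cfp and -2.12 to 1.17 for Masp1. Over both experiments they were 117 to 515 genes lower, 126 to 585 higher, 0 to 3 other complement genes higher, and -0.17 to 0.82 for C1qa, -0.014 to 0.76 for C1qb, -0.0080 to 0.53 for C1qc, -5.23 to 3.56 for Cd55, -0.16 to 0.069 for Cfp, -0.25 to 0.53 for Itgam and -3.23 to 1.48 for Itgax. For the difference between experiments they were 3935 to 6508 genes, 9 to 16 other complement genes, -0.45 to 0.61 for C3, -0.22 to 0.35 for C5ar1 and -0.12 to 0.50 for Cfp.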
